A study of Mus musculus with 12 samples.

Results

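The interferon-stimulated genes are the genes that cells switch on when an interferon binds its receptor. A set of 50 such genes, named by symbol, was followed in bulk RNA-seq of mouse endometrial epithelial organoids, which are hollow cultures grown in a gel from the epithelium that lines the uterus. All 50 symbols were among the 26264 genes counted, and each member had reads in at least 1 library. Organoids were wild type (WT) or lacked Esr1, the gene for estrogen receptor alpha (KO), and each genotype was kept without estrogen or given it. The 4 groups therefore were WT without estrogen, WT with estrogen, KO without estrogen and KO with estrogen, each with 3 libraries, all at passage 3. The labels do not say how or in which cells Esr1 was deleted, what dose of estrogen was given or for how long, or from how many mice or cultures the replicates came, and the submitters' treatment note states that organoids of neither genotype responded to the hormone. The growth protocol describes isolation of epithelium on postnatal days 15, 30 and 60 without saying which day these organoids came from. P-values below therefore measure the spread between these libraries, which may be technical.

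Type I interferons signal through the receptor chains Ifnar1 and Ifnar2, type III through Ifnlr1 and Il10rb, and type II through Ifngr1 and Ifngr2. Janus kinases on the receptors phosphorylate STAT proteins. A complex of STAT proteins, among them Stat2, with Irf9 binds the interferon-stimulated response element, and STAT dimers bind the gamma-activated site. The induced genes encode sensors of foreign nucleic acid, proteins that block viral RNA, entry or release, enzymes that attach the ubiquitin-like protein Isg15, GTPases that attack pathogen vacuoles, and parts of the antigen-processing machinery. Interferon epsilon, a type I interferon, is known for its steady production by the epithelium of the female reproductive tract.

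The promoter sequences show the feature that the member genes are known for, the response element, which the choice of members by symbol did not use. RefSeq promoters of the mouse build GRCm38.p6 (250 bases before to 50 bases after each start site) were matched for 38 of the 50 members. The core, which is GAAA, any 2 bases and GAAA again, searched on both strands with overlapping matches counted, was found in promoters of 20 of these 38 members (52.6%) and of 3.99% of all 27025 genes with a promoter there. The gamma-activated site TTCNNNGAA was found for 11 of the 38 (28.9%) and for 9.55% of all genes, and the estrogen response element, which is GGTCA and TGACC with any 3 bases between them, for 0 of the 38 and 0.074% of all genes. Of the members called higher in KO below, 14 of 30 with a promoter held the response element core, against 2 of the 3 called lower and 4 of the 5 not called in both treatments. These matches describe letters in the window and do not show that a factor binds. The 150 bases before the start of 4 genes are shown on the strand of the gene, 5′ to 3′, with each response element core in capitals. Ifit1, Isg15 and Rsad2 are members whose levels were higher in KO, and Bst2, chosen after its values were seen, is one whose level was lower and whose promoter holds the same core. Only promoters that hold the core are shown. Members called higher whose promoters hold no core in this window include Irf7, Ifitm1, Psmb9 and Ifi44.
Ifit1, chr19:34640739-34640888, plus strand: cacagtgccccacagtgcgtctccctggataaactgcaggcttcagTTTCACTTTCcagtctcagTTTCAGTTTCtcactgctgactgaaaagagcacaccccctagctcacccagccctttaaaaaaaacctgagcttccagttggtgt
Isg15, chr4:156200819-156200968, minus strand: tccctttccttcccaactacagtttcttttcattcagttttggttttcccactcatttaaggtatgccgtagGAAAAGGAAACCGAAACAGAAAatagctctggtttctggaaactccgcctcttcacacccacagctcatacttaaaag
Rsad2, chr12:26456453-26456602, minus strand: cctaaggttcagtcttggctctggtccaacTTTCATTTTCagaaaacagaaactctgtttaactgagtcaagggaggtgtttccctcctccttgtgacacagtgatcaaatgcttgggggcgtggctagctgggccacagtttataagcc
Bst2, chr8:71537473-71537622, minus strand: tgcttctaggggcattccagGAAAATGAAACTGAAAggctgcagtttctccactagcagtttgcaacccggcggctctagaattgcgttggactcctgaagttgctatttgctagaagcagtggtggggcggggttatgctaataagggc
The overlapping cores of Isg15 and Bst2 merge into one run of capitals. In Ifit1 and Rsad2 the capitals show the reverse complement of the core.

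The deposited tables hold raw counts, and library totals ran from 75654191 to 108665407 counted reads. Levels are given as counts per 1000000 counted reads after TMM scaling (CPM), in the order of replicates 1, 2 and 3. A group total of 3 reads corresponds to 0.00902 to 0.0116 CPM, the limit that a count of 0 allows over a group if every read is a separate fragment. Esr1 itself stood at 253 to 352 CPM in WT and 15.9 to 20.3 CPM in KO, and the groups did not overlap. The 6 epithelial markers summed to 3622 to 4443 CPM in WT and 3111 to 3907 CPM in KO. Of these, Epcam (994 to 1215 CPM in WT, 613 to 811.5 in KO) and Krt18 (910 to 1018 and 442 to 658) were called lower in both treatments. Krt8 passed as higher only without estrogen and Krt19 only with it, and Cdh1 and Cldn4 did not pass. Hoxa10 and Hoxa11, which mark uterine stroma, had at most 4 reads in any group. Sums of several other marker lists separated the genotypes. The 8 basal and squamous markers (such as Krt5, Krt14 and Trp63) summed to 9.06 to 12.7 CPM in WT and 5439 to 14120 CPM in KO. The 6 multiciliated cell markers summed to 0.672 to 1.34 CPM in WT and 637 to 1221 CPM in KO. The 16 immune markers summed to 256 to 474 CPM in WT and 104 to 190.4 CPM in KO, and most of this came from Cd68. Of the 8 that were tested, Cd68, Csf1r and Ptprc were called lower in KO, Itgam, Itgax and Lyz2 higher, and the other 2 were not called in both treatments. Csf1r stood at 19.6 to 49.2 CPM in WT and 0.0516 to 0.571 CPM in KO, and Ptprc, the pan-leukocyte marker Cd45, at 3.87 to 7.66 CPM in WT and 0 to 0.0190 CPM in KO. The myeloid marker Itgam stood at 0.0695 to 0.541 CPM in WT and 2.0 to 3.77 CPM in KO, Itgax at 0 to 0 CPM in WT and 0.206 to 0.373 CPM in KO, and Lyz2 at 0 to 0.278 CPM in WT and 0.433 to 2.23 CPM in KO. Itgax and Lyz2 passed the filter on low counts only through KO libraries, and Ptprc only through WT libraries, so these could be tested because of that difference. Cd3e, Siglech, Nkg7, Tyrobp and C1qa, which define T, plasmacytoid dendritic, natural killer and other myeloid cells, had at most 8 reads in any group. The 10 stromal markers summed to 2.58 to 5.31 CPM in WT and 6.65 to 11.0 CPM in KO. Most of that sum in KO was Vim, at 0.0607 to 0.363 CPM in WT and 5.22 to 7.77 CPM in KO, while Col1a1, Col1a2, Col3a1 and Dcn had at most 1.22 CPM in WT and 0.833 CPM in KO, with fold changes below 0 and no call in both treatments. Pdgfra stood at 0.854 to 1.97 CPM in WT and 1.18 to 2.69 CPM in KO. Its log2 fold changes of 0.37 without and 0.38 with estrogen did not pass the test. The 6 endothelial markers summed to at most 2.86 CPM in any library. Of the 2 that were tested, Pecam1 was called higher in KO (0.0232 to 0.123 CPM in WT, 0.559 to 0.937 in KO). Cdh5 was called lower (0.627 to 2.78 CPM in WT, 0 to 0.0721 in KO). Pecam1 passed the filter on low counts only through KO libraries and Cdh5 only through WT libraries. The part of these cell types in the results below was not tested, and in bulk samples fewer cells of a type cannot be told apart from less RNA per cell.

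One library in each untreated group stood apart in the members. Replicate 3 of WT without estrogen was the highest of its 3 libraries in 41 of 50 members, where it was the highest in 35.5% of all genes tested. Replicate 3 of KO without estrogen was the highest in 40 of 50 members, against 27% of all genes. In the 2 treated groups each library was the highest of its group in 9 to 22 members. Where leaving out 1 of these 2 libraries moved a fold change named below by over 1.5 times, the value without it is given.

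Most members were higher in KO organoids in both treatments. The members were chosen with earlier results of these data known, so a share above that of all genes is not independent evidence. By edgeR's quasi-likelihood test with Benjamini-Hochberg adjustment over 16465 genes, 40 of 50 members were higher in KO both without and with estrogen, where 34.1% of all genes tested were. The test called 4 members lower in both treatments, where 30.8% of all genes were called: Mx1, Bst2, Samhd1 and Irgm1. The remaining 6, Stat2, Trim25, Gbp3, Gbp7, Gbp11 and Igtp, were not called in both. Without estrogen alone 41 members were higher (background 37.7%) and 4 lower (34.0%), and with estrogen alone 41 were higher (36.7%) and 4 lower (34.1%). At least a 2-fold difference in both treatments was reached by 30 members called higher (24.4% of all genes) and 2 called lower (11.2%). The 6 KO libraries lay wholly above the 6 WT libraries for 40 members (34.0%) and wholly below for 3 (31.0%). Those above include Gbp11, not called in both treatments, and leave out Cxcl10, which overlapped. Gbp11 reached 0.0202 CPM in WT and fell to 0.0225 CPM in KO, where a few reads decide. Libraries of the 2 treatments correlated in pairs within each genotype, as given below, so the treatments may not be independent. All 50 members passed the filter on low counts, 48 of them on WT libraries alone. Ifit2 and Gbp11 passed only through the KO libraries, so these members could be tested because they were higher in KO.

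The median log2 fold change of the members, KO against WT, was 2.0 without estrogen and 2.08 with it. Over all genes tested the medians were 0.039 and 0.020. Member values ran from -2.09 to 10.87 without estrogen and from -2.22 to 9.87 with it. When libraries were scaled by their totals only, the median over all genes went up by 0.23 without and 0.19 with estrogen. With that scaling 41 members were called higher and 2 lower in both treatments, so that 95.4% of called members were higher in place of 90.9%, and 65.3% of all called genes in place of 52.5%.

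**Figure D1:**
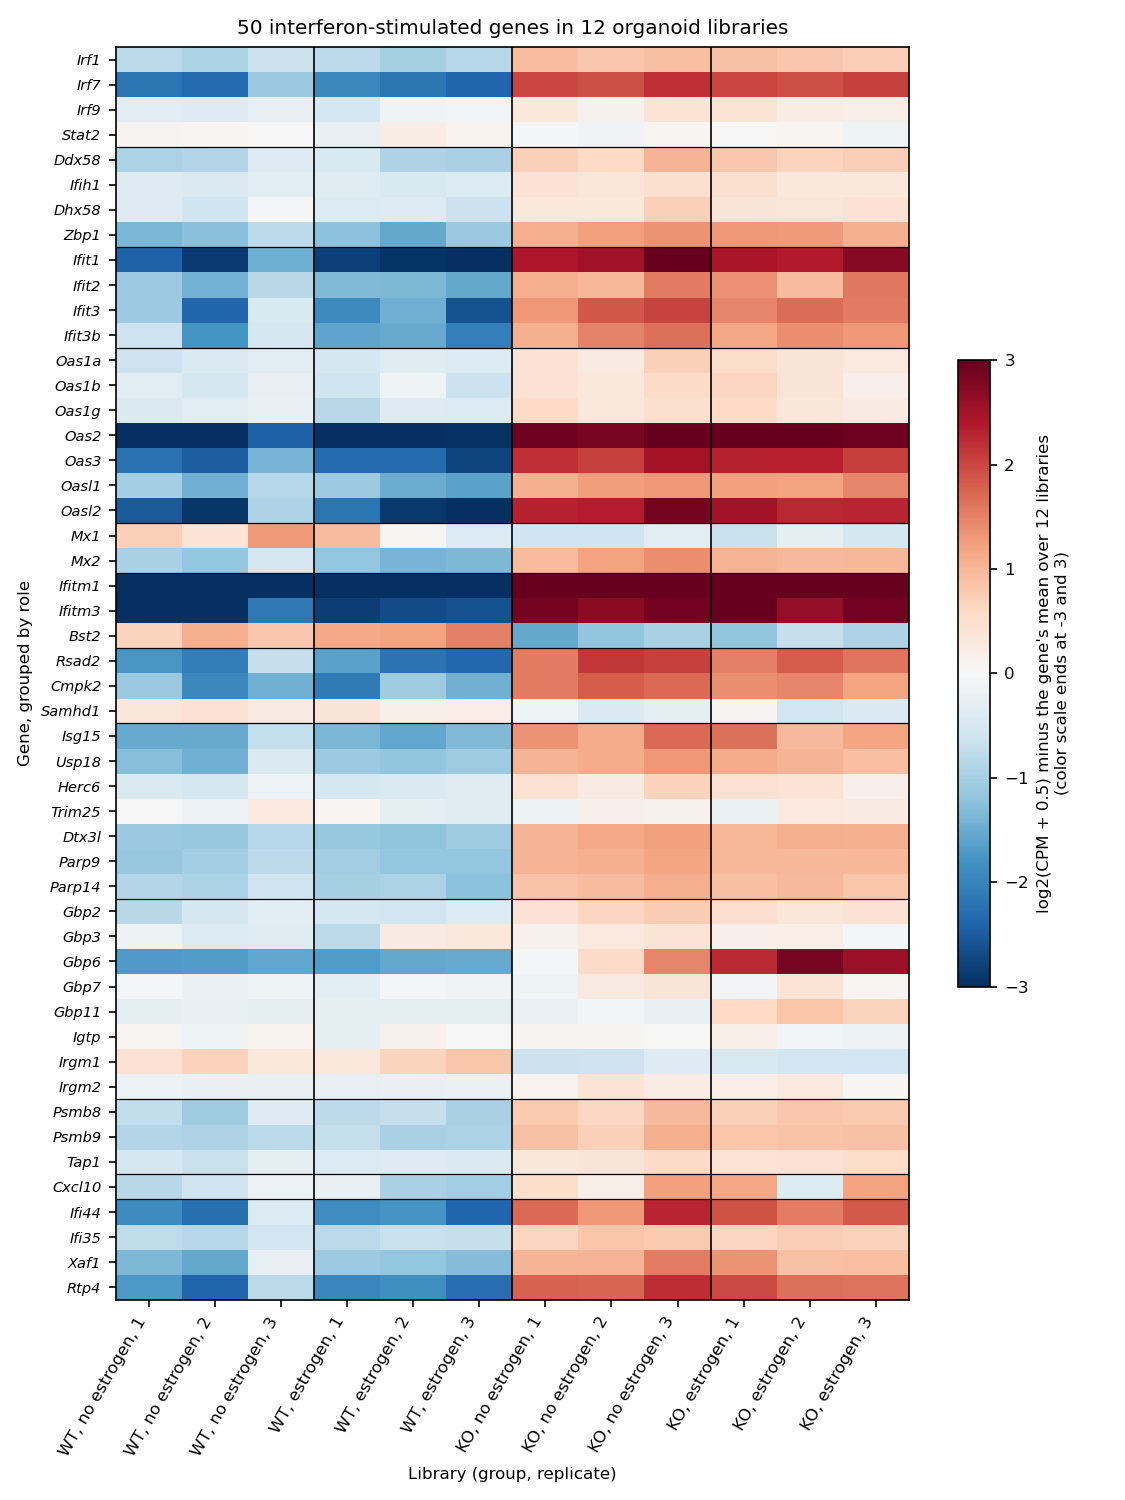
Levels of the 50 members (rows, grouped by role) in the 12 libraries (columns, by group and replicate), as log2(CPM + 0.5) minus the mean of the gene over the 12 libraries, with colors ending at -3 and 3. Most rows change between the WT and KO columns, 40 of them to higher levels in KO, while Mx1, Bst2, Samhd1 and Irgm1 show the opposite.

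**Figure D2:**
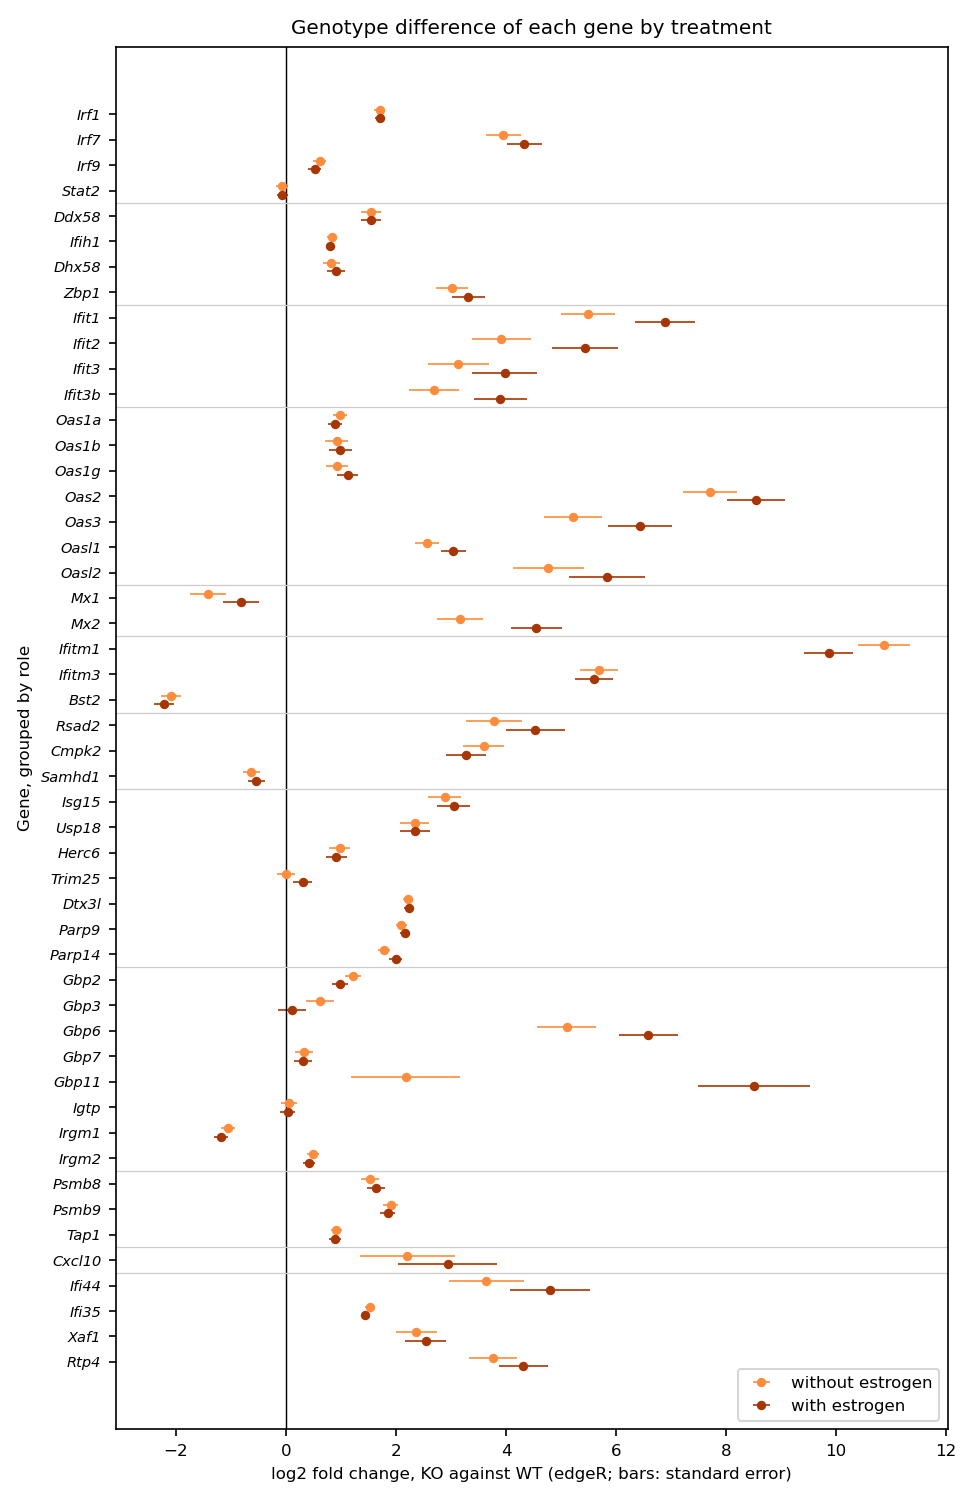
Log2 fold change of each member, KO against WT, without and with estrogen, with bars for the standard error. Ifitm1 lies farthest to the right, at 10.87 and 9.87, and Bst2 farthest to the left, at -2.09 and -2.22.

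Of the 4 transcription factors of the response, 3 were higher in KO. Irf7, which drives late interferon production and is itself induced, measured 3.38, 3.06 and 7.77 CPM in WT without estrogen, 4.17, 3.39 and 2.93 in WT with it, 71, 67.9 and 81.1 in KO without it and 71.5, 67.2 and 73.5 in KO with it. Every KO library exceeded every WT library, with log2 fold changes of 3.95 ± 0.32 without and 4.34 ± 0.32 with estrogen (edgeR adjusted p = 9.33e-07 and 6.09e-07). Fold changes here and below are followed by their standard error. Irf1, an early activator of antigen-processing genes, measured 17.5, 15.7 and 19.6 CPM in WT without estrogen, 17.9, 15.2 and 17 in WT with it, 59.5, 54.3 and 58 in KO without it and 57.1, 54.2 and 52.4 in KO with it. Its groups did not overlap, and it had log2 fold changes of 1.70 ± 0.092 without and 1.71 ± 0.092 with estrogen (edgeR adjusted p = 4.24e-08 and 4.80e-08). Irf9, the DNA-binding part of the STAT complex, had log2 fold changes of 0.61 ± 0.12 without and 0.52 ± 0.12 with estrogen (edgeR adjusted p = 8.40e-04 and 0.00248). Stat2, the partner of Irf9, measured 51.2, 50.5 and 47.8 CPM in WT without estrogen, 41.2, 56.7 and 51.9 in WT with it, 46.7, 45.1 and 50.3 in KO without it and 48.7, 50.3 and 44 in KO with it. The Stat2 libraries of the genotypes overlapped, and its fold changes of -0.073 and -0.067 did not pass the test (edgeR adjusted p = 0.548 and 0.582).

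All 4 sensors of foreign nucleic acid were called higher. Zbp1, which senses nucleic acid in the Z form, was the one with the greatest fold change of the group and measured 0.471, 0.556 and 0.973 CPM in WT without estrogen, 0.576, 0.363 and 0.665 in WT with it, 4.84, 5.39 and 5.93 in KO without it and 5.68, 5.6 and 4.77 in KO with it. The test gave log2 fold changes of 3.01 ± 0.29 without and 3.32 ± 0.30 with estrogen (edgeR adjusted p = 3.52e-06 and 2.06e-06), and its groups did not overlap. Ddx58, which encodes the RNA sensor RIG-I, measured 10.6, 11.1 and 15.7 CPM in WT without estrogen, 14.9, 10.8 and 10.3 in WT with it, 34.5, 31.7 and 42.5 in KO without it and 36.9, 33.5 and 35.1 in KO with it. Its KO libraries all lay above its WT libraries, with log2 fold changes of 1.54 ± 0.18 without and 1.55 ± 0.18 with estrogen (edgeR adjusted p = 1.75e-05 and 1.76e-05). Ifih1, the sensor MDA5, had smaller fold changes of 0.83 and 0.81 (edgeR adjusted p = 2.62e-06 and 3.59e-06). Dhx58, the sensor LGP2, had 0.82 and 0.91 (edgeR adjusted p = 6.47e-04 and 3.42e-04).

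The IFIT proteins bind viral RNA and block its translation, and all 4 members were higher. Ifit1, whose promoter cores are shown above, measured 0.637, 0.324 and 1.69 CPM in WT without estrogen, 0.370, 0.290 and 0.203 in WT with it, 32.2, 34.3 and 51.6 in KO without it and 32.7, 31 and 39.7 in KO with it. In WT without estrogen the third library was the highest, and all WT libraries stayed below all KO libraries. The test gave log2 fold changes of 5.48 ± 0.49 without and 6.89 ± 0.54 with estrogen (edgeR adjusted p = 2.32e-06 and 9.66e-07). Without replicate 3 of WT without estrogen, the fold change of Ifit1 without estrogen was 6.38. Ifit2 measured 0.204, 0.0607 and 0.348 CPM in WT without estrogen, 0.103, 0.0968 and 0.0225 in WT with it, 2.72, 2.5 and 3.94 in KO without it and 3.41, 2.41 and 4.01 in KO with it. KO against WT gave log2 fold changes of 3.91 ± 0.53 without and 5.44 ± 0.60 with estrogen (edgeR adjusted p = 5.30e-05 and 1.02e-05), and 4.56 without that replicate. Ifit3 and Ifit3b had fold changes without and with estrogen of 3.13 and 3.97, and of 2.69 and 3.90. The first Ifit3 value was 3.76 without replicate 3 of WT without estrogen. Their adjusted p-values in edgeR's test were 4.18e-04 and 1.10e-04 for Ifit3 and 2.79e-04 and 3.03e-05 for Ifit3b. Ifit3 and Ifit3b are near copies: 18.5% of the 150-base windows of Ifit3 and 16% of those of Ifit3b also occur in the other gene, and reads that map to both were not counted, so the split between them is uncertain.

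All 7 OAS members were higher. These genes encode synthetases whose product activates the RNA-cutting enzyme RNase L, and relatives without that activity. Oas2 measured 0.0765, 0.0607 and 0.440 CPM in WT without estrogen, 0.0617, 0.121 and 0.158 in WT with it, 38.7, 36.5 and 44.8 in KO without it and 46.5, 42 and 38.5 in KO with it. From well under 1 CPM in every WT library it stood above 36 CPM in every KO library. It had log2 fold changes of 7.70 ± 0.49 without and 8.55 ± 0.52 with estrogen (edgeR adjusted p = 1.66e-07 and 1.36e-07), and 9.18 in place of the first value without replicate 3 of WT without estrogen. Oas3 measured 0.306, 0.182 and 0.950 CPM in WT without estrogen, 0.267, 0.266 and 0.0676 in WT with it, 16.9, 15.4 and 21 in KO without it and 18.5, 18.6 and 15.6 in KO with it. The test gave log2 fold changes of 5.22 ± 0.53 without and 6.44 ± 0.58 with estrogen (edgeR adjusted p = 5.94e-06 and 2.45e-06), and 6.2 without that replicate. Both genes separated the genotypes completely. Oasl2 followed with fold changes of 4.77 and 5.83 (edgeR adjusted p = 5.82e-05 and 2.24e-05), 6.07 in place of the first value without that replicate and 6.5 in place of the second without replicate 1 of WT with estrogen, and Oasl1 with 2.56 and 3.04 (edgeR adjusted p = 1.52e-06 and 5.43e-07). Oas1a, Oas1b and Oas1g had smaller fold changes, between 0.89 and 1.12, with groups that did not overlap. Oas1a and Oas1g share 32.4% and 30.1% of their 150-base windows with each other and are uncertain in their split.

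The MX pair, dynamin-like GTPases that trap viral nucleocapsids, went in opposite directions. Mx2 measured 0.255, 0.162 and 0.544 CPM in WT without estrogen, 0.165, 0.0605 and 0.0789 in WT with it, 2.37, 2.9 and 3.36 in KO without it and 2.48, 2.42 and 2.43 in KO with it. Its KO libraries all exceeded its WT libraries, with log2 fold changes of 3.17 ± 0.42 without and 4.55 ± 0.47 with estrogen (edgeR adjusted p = 4.09e-05 and 5.88e-06). The first of these was 3.79 without replicate 3 of WT without estrogen. Mx1, a gene that many inbred mouse strains carry in a damaged form, measured 20.8, 16.7 and 31 CPM in WT without estrogen, 24.4, 12.8 and 9.23 in WT with it, 7.97, 7.99 and 9.76 in KO without it and 7.61, 10.2 and 8.48 in KO with it. Without estrogen its groups did not overlap, while with estrogen 1 KO library lay above 1 WT library. It was called lower, with log2 fold changes of -1.41 ± 0.33 without and -0.82 ± 0.33 with estrogen (edgeR adjusted p = 0.00258 and 0.0414). The call with estrogen was lost under several other settings, among them DESeq2 size factors (edgeR adjusted p = 0.0562), library size alone (0.105) and the fit to the 2 groups compared (0.0777). It was also lost when replicate 1 of WT without estrogen, replicate 1 of WT with estrogen, any replicate of KO without estrogen, or replicates 1 or 3 of KO with estrogen were left out, with adjusted p from 0.0513 to 0.261.

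The 3 membrane restriction factors included the greatest rise and the greatest fall of the set. Ifitm1, which hinders the fusion of enveloped viruses with the host membrane, measured 0.420, 0.243 and 0.718 CPM in WT without estrogen, 0.494, 1.51 and 0.856 in WT with it, 774, 859 and 937 in KO without it and 866, 869.7 and 913 in KO with it. The mean level in KO was 1860.0 times that in WT without estrogen and 925 times with it, with log2 fold changes of 10.87 ± 0.47 without and 9.87 ± 0.45 with estrogen (edgeR adjusted p = 1.13e-08 and 1.77e-08). Ifitm3, which blocks fusion of viruses in endosomes, measured 11.7, 9.95 and 26 CPM in WT without estrogen, 15.9, 17.6 and 18.7 in WT with it, 846, 758 and 863 in KO without it and 947, 725 and 862 in KO with it. KO against WT gave log2 fold changes of 5.69 ± 0.35 without and 5.60 ± 0.35 with estrogen (edgeR adjusted p = 1.15e-07 and 1.43e-07). Both genes separated the genotypes completely. Bst2, the protein tetherin that holds budding virus at the cell surface, measured 135, 180.0 and 148 CPM in WT without estrogen, 185, 194 and 242 in WT with it, 28.9, 36.8 and 42.6 in KO without it and 37, 51.8 and 44.2 in KO with it. Every KO library lay below every WT library, and the WT mean was 4.27 times the KO mean without estrogen and 4.67 times with it. Bst2 had log2 fold changes of -2.09 ± 0.18 without and -2.22 ± 0.18 with estrogen (edgeR adjusted p = 1.52e-06 and 1.09e-06).

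Per kilobase of exon, which allows levels to be set between genes, the order of members differed by genotype. In WT without estrogen Bst2 led with 171 CPM per kilobase, ahead of Trim25 with 29.7, Ifitm3 with 23.4 and Irgm1 with 11.7. In KO without estrogen Ifitm3 led with 1213 and Ifitm1 followed with 783, ahead of Bst2 with 40.0 and Trim25 with 29.7. Summed over the 50 members, the level was 765 to 891 CPM in the WT libraries and 2832 to 3250 CPM in the KO libraries. Ifitm1 and Ifitm3 supplied 1.30% to 3.00% of that sum in WT and 55.0% to 58.6% in KO. The exon lengths come from GENCODE, build GRCm38, and not from the annotation behind the counts.

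Of the 3 nucleotide and radical enzymes, 2 were higher. Rsad2, the protein viperin that makes a chain-terminating nucleotide, measured 0.764, 0.495 and 2.13 CPM in WT without estrogen, 0.895, 0.411 and 0.327 in WT with it, 11.9, 17.9 and 17 in KO without it and 11.6, 14.3 and 12.3 in KO with it. It had log2 fold changes of 3.79 ± 0.51 without and 4.53 ± 0.54 with estrogen (edgeR adjusted p = 5.21e-05 and 2.04e-05), and 4.64 in place of the first value without replicate 3 of WT without estrogen. Cmpk2, a nucleotide kinase encoded beside Rsad2, measured 1.71, 0.738 and 1.26 CPM in WT without estrogen, 0.596, 1.77 and 1.26 in WT with it, 13.5, 16.2 and 14.9 in KO without it and 11.9, 12.7 and 10.3 in KO with it. The test gave log2 fold changes of 3.59 ± 0.38 without and 3.27 ± 0.37 with estrogen (edgeR adjusted p = 6.87e-06 and 1.41e-05), and neither gene overlapped between genotypes. Samhd1, which degrades deoxynucleotides, measured 64.7, 69.1 and 62.2 CPM in WT without estrogen, 67.3, 58.2 and 59 in WT with it, 47.1, 38 and 41.6 in KO without it and 54.3, 34.4 and 38.2 in KO with it. Its KO libraries all lay below its WT libraries, with log2 fold changes of -0.63 ± 0.15 without and -0.54 ± 0.15 with estrogen (edgeR adjusted p = 0.00287 and 0.00727). With library size alone as the scaling, the call of Samhd1 with estrogen was lost (edgeR adjusted p = 0.0587).

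In the group of Isg15, ubiquitin and ADP-ribose enzymes, 6 of 7 members were higher. Isg15, the ubiquitin-like modifier, measured 1.49, 1.48 and 2.92 CPM in WT without estrogen, 1.67, 1.43 and 1.76 in WT with it, 13.9, 11.8 and 17.9 in KO without it and 17.2, 10.6 and 12.3 in KO with it. KO against WT gave log2 fold changes of 2.89 ± 0.30 without and 3.05 ± 0.30 with estrogen (edgeR adjusted p = 5.71e-06 and 4.34e-06). Usp18, which removes Isg15 from its targets and dampens the receptor, measured 1.94, 1.68 and 3.94 CPM in WT without estrogen, 2.31, 2.13 and 2.34 in WT with it, 11.6, 12.3 and 14.3 in KO without it and 12.3, 11.6 and 10.7 in KO with it. It had log2 fold changes of 2.34 ± 0.27 without and 2.35 ± 0.27 with estrogen (edgeR adjusted p = 1.44e-05 and 1.50e-05), and neither gene overlapped between genotypes. Dtx3l and Parp9, a ubiquitin ligase and its ADP-ribosyl partner, had similar fold changes of 2.21 and 2.23 and of 2.10 and 2.16. These neighbours overlap in the genome, and counting was without strand. Reads assigned to both were not counted, so both genes may lose reads. Parp14, another ADP-ribosyltransferase, had 1.78 and 1.99, and Herc6, the main mouse ligase for Isg15, had 0.97 and 0.91. Adjusted p-values for these 4 genes in edgeR's test ranged from 7.06e-09 to 0.0011. For Herc6, 17.9% of 150-base windows also occur in Gm45193, so its count is uncertain. Trim25, the ubiquitin ligase that acts on RIG-I, measured 163, 147 and 203 CPM in WT without estrogen, 174, 138 and 129 in WT with it, 149.7, 184 and 180.2 in KO without it and 145, 203 and 196 in KO with it. The Trim25 libraries overlapped, and the fold changes of -0.0001 without and 0.30 with estrogen did not pass the test (edgeR adjusted p = 0.999 and 0.122). With estrogen Trim25 passed as higher with library size alone (0.49, edgeR adjusted p = 0.0217), without replicate 1 of WT with estrogen (0.44, 0.0419) and without replicate 1 of KO with estrogen (0.44, 0.0301).

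The guanylate-binding proteins and IRG GTPases, which gather on the vacuoles of intracellular pathogens, were the group with the most members not called in both treatments: 3 were higher, 1 lower and 4 not called. Gbp6 measured 0.0510, 0.0607 and 0.116 CPM in WT without estrogen, 0.0617, 0.121 and 0.135 in WT with it, 1.27, 2.21 and 4.46 in KO without it and 7.99, 12.4 and 10.2 in KO with it. Its genotypes did not overlap, and it had log2 fold changes of 5.10 ± 0.54 without and 6.59 ± 0.54 with estrogen (edgeR adjusted p = 6.97e-06 and 1.06e-06). The first Gbp6 value was 4.5 without replicate 3 of KO without estrogen. For Gbp6, 76.5% of 150-base windows also occur in another gene, chiefly Gbp10, so that its own count is uncertain. Gbp2 and Irgm2 were called higher with fold changes of 1.22 and 0.99 and of 0.49 and 0.42. Irgm1, a regulator of the other IRG GTPases, measured 65.7, 77.4 and 60.5 CPM in WT without estrogen, 60.5, 77 and 85.9 in WT with it, 30.5, 30.9 and 36.4 in KO without it and 34.5, 32.1 and 32.1 in KO with it. Every KO library of Irgm1 lay below every WT library, with log2 fold changes of -1.06 ± 0.13 without and -1.18 ± 0.13 with estrogen (edgeR adjusted p = 2.61e-05 and 1.23e-05).

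Gbp3 measured 7.98, 6.51 and 6.82 CPM in WT without estrogen, 4.86, 10.7 and 11.2 in WT with it, 9.79, 11 and 12 in KO without it and 9.87, 10.3 and 8.54 in KO with it. It passed the test without estrogen (log2 fold change 0.62, edgeR adjusted p = 0.0459) and not with it (0.11, 0.717). The call of Gbp3 was lost when any 1 library of WT without estrogen or of either KO group was left out, with adjusted p from 0.0522 to 0.123. Gbp7 measured 13.2, 11.8 and 12.4 CPM in WT without estrogen, 10.8, 13.5 and 12.6 in WT with it, 12.4, 16.5 and 18 in KO without it and 12.8, 18.4 and 14.3 in KO with it. Igtp, a GTPase of the IRG group, measured 7.19, 6.22 and 7.44 CPM in WT without estrogen, 5.53, 7.59 and 6.85 in WT with it, 7.26, 7.33 and 6.95 in KO without it and 7.78, 6.45 and 6.14 in KO with it. In Gbp7 and Igtp the groups overlapped and neither treatment passed the test (lowest edgeR adjusted p = 0.0929 and 0.777). Gbp7 passed in both treatments with library size alone (0.55 and 0.50, edgeR adjusted p = 0.0112 and 0.0195), and without estrogen when replicate 1 of KO without estrogen was left out (0.0216). Gbp11 had 2 reads over the 3 libraries of WT without estrogen and 0 over WT with estrogen, against 10 and 161 in the matching KO groups. The KO to WT ratio of Gbp11 was 5.08 without estrogen (95% counting interval 1.08 to 47.7). With estrogen its level in KO was 43.4 times a floor of 3 reads over the WT group, and only this comparison passed the test (edgeR adjusted p = 0.0738 and 5.91e-05). Mates were counted singly, so 1 fragment can give 2 reads. The interval is therefore too narrow, and the floor too low.

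All 3 antigen-processing members were higher. Psmb9, a subunit of the immunoproteasome, measured 3.81, 3.68 and 4.0 CPM in WT without estrogen, 4.36, 3.56 and 3.6 in WT with it, 14, 12.4 and 16.5 in KO without it and 13.7, 13.8 and 14 in KO with it. The test gave log2 fold changes of 1.90 ± 0.13 without and 1.85 ± 0.13 with estrogen (edgeR adjusted p = 2.22e-07 and 3.15e-07). Psmb8, another of its subunits, measured 12.3, 9.51 and 15.7 CPM in WT without estrogen, 11.7, 12.5 and 10.2 in WT with it, 35.7, 31.8 and 40.9 in KO without it and 34.2, 36.4 and 35.8 in KO with it. KO against WT gave log2 fold changes of 1.53 ± 0.16 without and 1.63 ± 0.16 with estrogen (edgeR adjusted p = 7.62e-06 and 5.19e-06), and neither subunit overlapped between genotypes. Tap1, a chain of the peptide pump into the endoplasmic reticulum, had 0.92 and 0.89 (edgeR adjusted p = 1.23e-05 and 1.59e-05).

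Cxcl10, the only chemokine of the set, attracts T cells and natural killer cells. It measured 0.127, 0.243 and 0.487 CPM in WT without estrogen, 0.442, 0.0726 and 0.0451 in WT with it, 1.11, 0.754 and 2.12 in KO without it and 2.0, 0.343 and 2.07 in KO with it. With estrogen 1 KO library lay below 1 WT library. It had log2 fold changes of 2.21 ± 0.87 without and 2.94 ± 0.90 with estrogen (edgeR adjusted p = 0.0392 and 0.0123). The call without estrogen was lost when replicates 1 or 2 of WT or replicates 1 or 3 of KO without estrogen were left out, with adjusted p from 0.0558 to 0.135, and the first fold change was 2.81 without replicate 3 of WT without estrogen. Without replicate 1 of WT with estrogen the second was 4.62. Cxcl10 overlaps Art3, and counting was without strand. Reads assigned to both were not counted, so Cxcl10 may lose reads.

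The 4 other induced members were all higher. Ifi44, a cytoplasmic protein induced by type I interferon, measured 0.484, 0.263 and 2.24 CPM in WT without estrogen, 0.514, 0.581 and 0.203 in WT with it, 11.3, 8.48 and 17.4 in KO without it and 13.4, 10.1 and 12.6 in KO with it. The test gave log2 fold changes of 3.64 ± 0.67 without and 4.79 ± 0.72 with estrogen (edgeR adjusted p = 5.61e-04 and 1.34e-04), and 5.07 in place of the first value without replicate 3 of WT without estrogen. Rtp4, a receptor transporter with antiviral action, measured 1.35, 0.688 and 3.01 CPM in WT without estrogen, 1.09, 1.21 and 0.766 in WT with it, 20.6, 20.1 and 27.8 in KO without it and 23.6, 18.9 and 18.6 in KO with it. KO against WT gave log2 fold changes of 3.76 ± 0.43 without and 4.32 ± 0.45 with estrogen (edgeR adjusted p = 1.53e-05 and 7.51e-06), and 4.5 without that replicate. Neither Ifi44 nor Rtp4 overlapped between genotypes. Xaf1, an inducer of cell death, had 2.37 and 2.54 (edgeR adjusted p = 1.65e-04 and 1.11e-04), and 3.04 in place of the first value without that replicate. Ifi35 had 1.52 and 1.44 (edgeR adjusted p = 6.73e-08 and 1.09e-07).

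**Figure D3:**
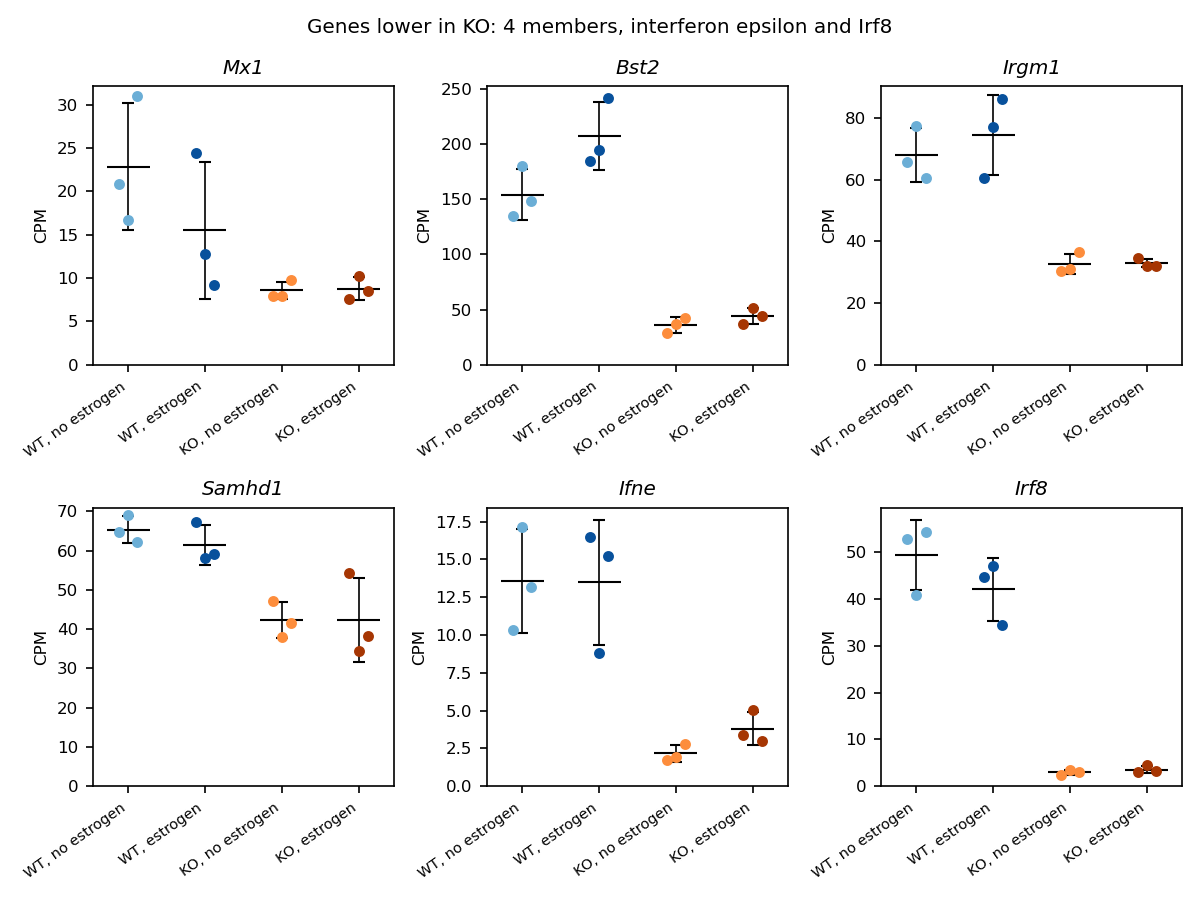
Levels (CPM) of the 4 members called lower in KO and of Ifne and Irf8, by group, with 1 point per library, a line at the mean and bars for the SD. The KO points lie below all WT points in every panel except Mx1, where the groups with estrogen overlap.

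The other genes of the pathway, 111 in 6 lists, were measured alongside, and 95 of them passed the filter. In both treatments 59 were higher in KO (34.1% of all genes) and 15 lower (30.8%), with median log2 fold changes of 0.83 without and 0.81 with estrogen. These lists too were chosen with earlier results of these data known. Of the 12 ligands, only Ifne passed the filter. Interferon epsilon (Ifne) measured 10.3, 17.2 and 13.1 CPM in WT without estrogen, 16.5, 8.79 and 15.2 in WT with it, 1.75, 1.93 and 2.83 in KO without it and 3.37, 5.03 and 2.99 in KO with it. All KO libraries lay below all WT libraries, with log2 fold changes of -2.64 ± 0.31 without and -1.83 ± 0.30 with estrogen (edgeR adjusted p = 1.89e-05 and 2.46e-04). The other 11 ligands, among them Ifnb1, Ifng and Ifnl2, had 0 to 12 reads per group of 3 libraries. The one ligand above the filter was lower in the organoids where most members were higher, and any link between them was not tested.

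Among the 6 receptor chains 3 were higher and 3 lower. Ifnar2, the binding chain of the type I receptor, stood at 44.8 to 58.3 CPM in WT and 80.0 to 108 CPM in KO, with fold changes of 0.96 and 0.81 (edgeR adjusted p = 1.12e-05 and 4.55e-05). Ifnar1, its signalling partner, stood at 88.3 to 101 CPM in WT and 72.8 to 78.2 CPM in KO and was called lower by -0.32 and -0.28 (edgeR adjusted p = 9.70e-04 and 0.00217). Both Ifnar1 calls were lost with library size alone (edgeR adjusted p = 0.249 and 0.226). The type II chains Ifngr1 and Ifngr2 were higher by 0.84 and 0.74 and by 1.16 and 1.20, and the type III chains Ifnlr1 and Il10rb had fold changes of -1.46 and -1.25 and of -0.85 and -1.03. Adjusted p-values of these 4 chains in edgeR's test were at most 6.34e-05.

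The kinases, STATs and interferon regulatory factors were divided, with 3 of 10 higher, 4 lower and 3 not called in both. Jak2, the kinase of the type II receptor, stood at 530.3 to 705 CPM in WT and 58.5 to 85.3 CPM in KO, with log2 fold changes of -3.19 ± 0.15 without and -3.13 ± 0.15 with estrogen (edgeR adjusted p = 1.36e-08 and 1.78e-08). Tyk2, a kinase of the type I receptor, had -0.79 and -0.67 (edgeR adjusted p = 1.99e-06 and 7.99e-06). Jak1, which serves every interferon receptor, had 0.058 and 0.21, and only the second passed the test (edgeR adjusted p = 0.481 and 0.0215). The second Jak1 call was lost in the fit to the 2 groups compared (edgeR adjusted p = 0.0777), without replicate 3 of WT with estrogen (0.0966) and without replicate 3 of KO with estrogen (0.0603), and the first was gained with library size alone (0.28, 0.00339). Stat3 had -0.039 and -0.045 and did not pass (edgeR adjusted p = 0.723 and 0.687).

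Irf5, a factor of inflammatory gene induction, stood at 0.282 to 0.586 CPM in WT and 6.12 to 15.1 CPM in KO and was higher by 4.72 and 4.76 (edgeR adjusted p = 2.16e-06 and 2.23e-06). Irf3, the factor that starts interferon production, had -0.62 and -0.62 (edgeR adjusted p = 2.75e-05 and 2.85e-05). Irf2, a repressor, passed only without estrogen, with -0.23 and 0.046 (edgeR adjusted p = 0.00892 and 0.559). With library size alone Irf2 instead passed only with estrogen, with -0.0075 and 0.23 (edgeR adjusted p = 0.926 and 0.00964). Irf8, a factor of myeloid cells, measured 52.8, 40.8 and 54.3 CPM in WT without estrogen, 44.6, 47.1 and 34.4 in WT with it, 2.38, 3.43 and 3.04 in KO without it and 2.95, 4.49 and 3.27 in KO with it. It was called lower with log2 fold changes of -4.06 ± 0.22 without and -3.56 ± 0.21 with estrogen (edgeR adjusted p = 3.80e-08 and 9.17e-08). The immune markers given above went in both directions.

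**Figure D4:**
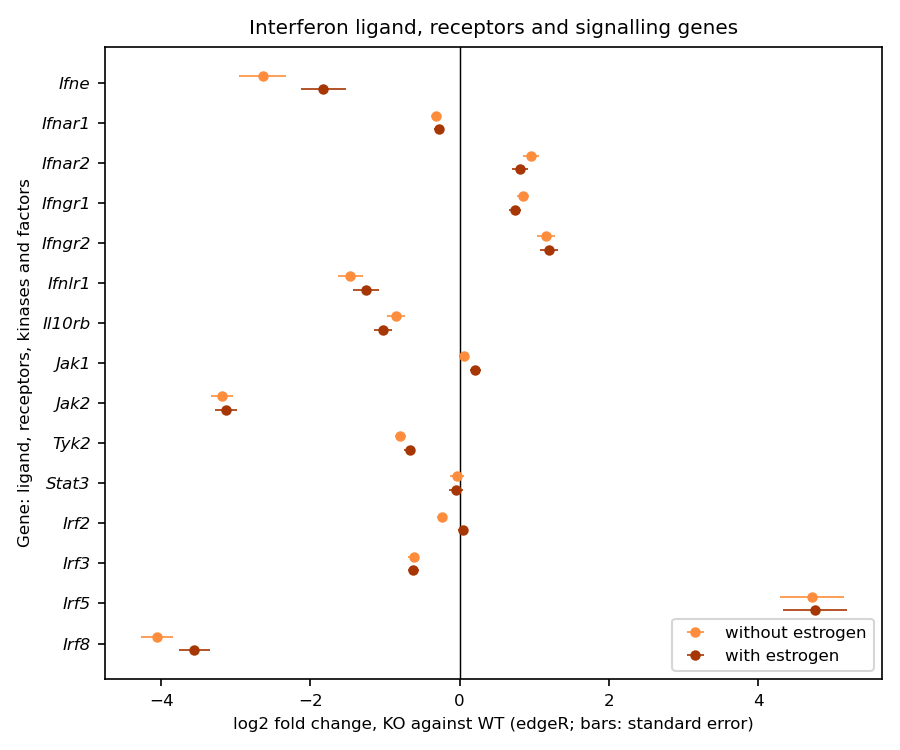
Log2 fold change, KO against WT, without and with estrogen, of the ligand Ifne, the receptor chains, and 8 of the 10 kinases, STATs and regulatory factors, with bars for the standard error. Values fall on both sides of 0, from -4.06 for Irf8 to 4.76 for Irf5.

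Of 12 sensor adaptors and kinases, 9 were tested, among which 3 rose in KO, 2 fell and the other 4 lacked a call in both treatments. Ticam1, the adaptor of Tlr3, stood at 30.6 to 39.7 CPM in WT and 18.6 to 21.4 CPM in KO, with fold changes of -0.80 and -0.92 (edgeR adjusted p = 2.03e-05 and 7.05e-06). Of 9 negative regulators 5 were higher and 1 lower. Of the 62 other interferon-induced genes 60 were tested, with 45 higher, 4 lower and 11 not called in both. By the mean of the 2 fitted fold changes, the 3 farthest toward KO were Iigp1, Tgtp1 and Ifi27l2a. Iigp1, an IRG GTPase, had 2 and 4 reads in the WT groups without and with estrogen and 1050 and 1211 in the KO groups. Its KO to WT ratio without estrogen was 534 (95% counting interval 147 to 4411), and 245 with estrogen (95.3 to 899). Both intervals take the mates of a fragment as separate reads and are too narrow. Tgtp1, another IRG GTPase whose count is uncertain because of the close copy Tgtp2, had 4 and 0 reads in WT and 239 and 309 in KO, and Ifi27l2a stood at 0 to 0.0505 CPM in WT and 3.05 to 4.19 CPM in KO. Iigp1, Tgtp1 and Ifi27l2a passed the filter only through the KO libraries, so they could be tested because they were higher in KO. The counts of pathway genes called higher include them. Among those called lower, Lap3, an aminopeptidase, stood at 158 to 186 CPM in WT and 53.6 to 61 CPM in KO, with fold changes of -1.52 and -1.53 (edgeR adjusted p = 2.88e-08 and 3.25e-08). H2-D1, a classical class I heavy chain from a family of close copies, stood at 328 to 424 CPM in WT and 171 to 242 CPM in KO, with -0.92 and -0.94 (edgeR adjusted p = 5.45e-06 and 5.21e-06).

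No member passed the test for estrogen. EdgeR's quasi-likelihood test called 0 of 50 members and 0 of 16465 genes (0%) within WT, within KO and for the difference between those effects. At an unadjusted p under 0.05, 2 members were higher and 5 lower with estrogen in WT (3.62% and 1.74% of all genes), 2 were higher and 0 lower in KO (1.51% and 0.990%), and 2 had a positive and 0 a negative interaction (1.74% and 2.67%). DESeq2 called 0 members in WT (of 70 genes called), 2 in KO (of 19) and 0 for the interaction (of 27). Members of smallest p within WT were Mx2, Ifit1 and Ifit3b, whose values with estrogen against none were -1.62 ± 0.47, -1.60 ± 0.54 and -1.36 ± 0.47 on the log2 scale (edgeR adjusted p = 0.692, 0.818 and 0.838). Without replicate 3 of WT without estrogen the first 2 were -0.99 and -0.70. In DESeq2, with all libraries, the adjusted p-values of Mx2, Ifit1 and Ifit3b within WT were 0.0753, 0.0832 and 0.195. For Mx2 and Ifit1 the interaction was 1.39 ± 0.60 and 1.41 ± 0.67 (edgeR adjusted p = 0.974 for both), and 0.76 and 0.51 without replicate 3 of WT without estrogen. Gbp11 had the smallest p for the interaction, and because it had 0 reads in WT with estrogen no size is given (edgeR adjusted p = 0.974).

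The sign of the small estrogen differences depended on the 2 libraries that stood apart. Within WT 13 of 50 members had a fold change above 0 (50.8% of all genes) and 37 below, with a median of -0.14. Without replicate 3 of WT without estrogen 22 were below 0 and the median was 0.014. Within KO 15 members were above 0 (49.7% of all genes) and 35 below, with a median of -0.054. Without replicate 3 of KO without estrogen 18 were below 0 and the median was 0.054.

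Within KO the members of smallest p were Gbp11, Gbp6 and Bst2. Gbp6, with the values given above, was higher in all 3 KO libraries with estrogen than in the 3 without it, by 1.95 ± 0.41 on the log2 scale (edgeR adjusted p = 0.876, DESeq2 adjusted p = 0.00678). Gbp11 measured 0.0240, 0.0685 and 0.0225 CPM in KO without and 0.413, 0.577 and 0.465 CPM in KO with estrogen, and did not overlap between these groups. The difference was 3.61 ± 0.61 (edgeR adjusted p = 0.876, DESeq2 adjusted p = 0.00367). Over KO libraries 2 of 50 members lay wholly higher with estrogen (3.43% of all genes) and 2 wholly lower (3.47%), namely Cmpk2 and Parp9. Bst2 differed by 0.30 ± 0.17 within KO (edgeR adjusted p = 1).

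Gbp6 and Gbp11 lie in the cluster of guanylate-binding protein genes on chromosome 5, while Gbp2, Gbp3 and Gbp7 lie in the cluster on chromosome 3, by the RefSeq gene table. The neighbours Gbp4, Gbp8, Gbp9 and Gbp10 were chosen after their values were seen. Gbp4 measured 0.240, 1.05 and 5.08 CPM in KO without and 14.8, 30.4 and 24.7 CPM in KO with estrogen. Gbp9 measured 1.75, 4.6 and 7.2 and 10.0, 19.2 and 13.5 CPM. Gbp4 and Gbp9 did not overlap between these groups, and neither passed the test (edgeR adjusted p = 1 for both). Gbp10 measured 0.0721, 0.0914 and 0.270 and 0.636, 0.802 and 0.769 CPM, and was at 0 reads in WT. Gbp8 measured 0.144, 0.994 and 1.05 and 0.920, 4.88 and 2.64 CPM and overlapped. For Gbp4, Gbp6, Gbp8, Gbp9, Gbp10 and Gbp11 the mean with estrogen in KO was 3.15 to 12.6 times that without it, and for Gbp2, Gbp3, Gbp5 and Gbp7 on chromosome 3 it was 0.802 to 0.971 times. Gbp2b, also on chromosome 3, had means of 0.0233 and 0.00633 CPM in KO without and with estrogen, with at most 3 reads in any library and 0 reads in WT, and no fold is given for it. Without replicate 3 of KO without estrogen the differences of Gbp4 and Gbp6 were 5.17 and 2.55 on the log2 scale. The Gbp6 and Gbp10 counts share sequence, so they do not count as separate genes here.

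**Figure D5:**
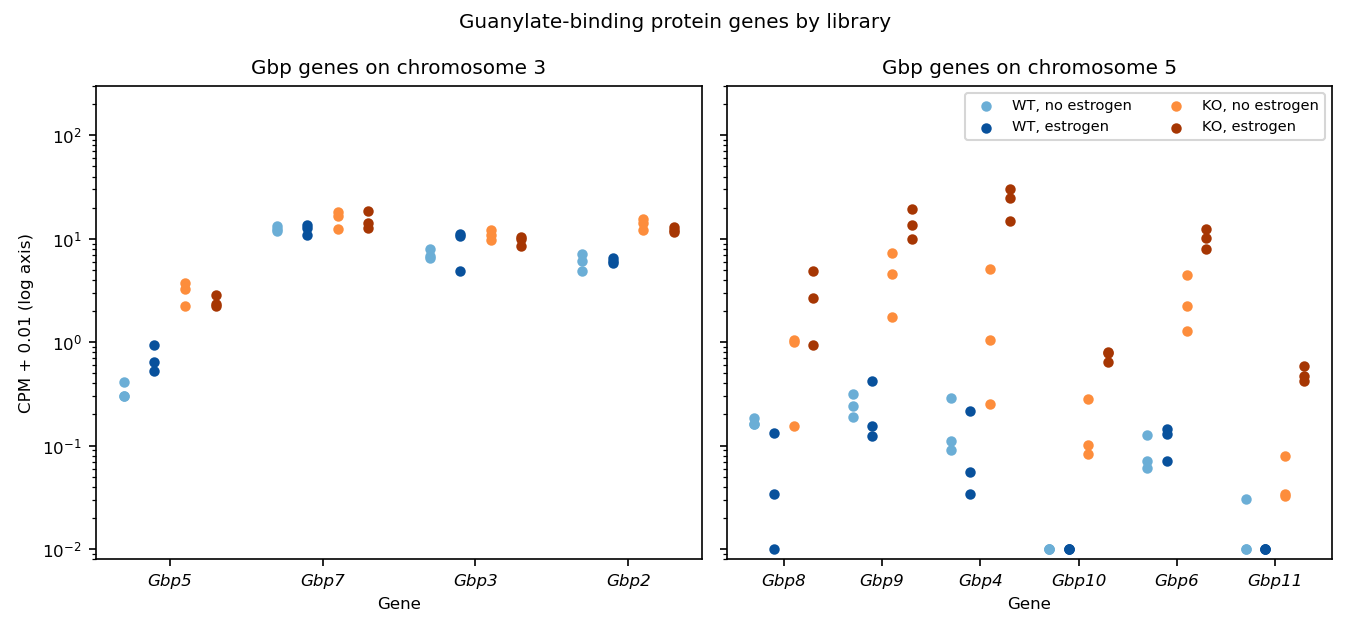
Levels (CPM + 0.01, log axis) of guanylate-binding protein genes on chromosomes 3 (without Gbp2b) and 5 by group, with 1 point per library. On chromosome 5 the points of KO with estrogen lie above those of KO without it except for an overlap in Gbp8, and on chromosome 3 both KO groups lie at similar heights.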

How the data were processed

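Bulk RNA-seq was measured in 12 libraries, 3 in each of 4 groups taken from the labels. The authors deposited raw read counts per gene symbol, made with featureCounts, whose version is 2.0.0 per the file headers and 2.0.3 per the submitters' processing notes. Alignment to GRCm39 with STAR 2.7.10b, trimming with Trim Galore 0.6.6 and read checks with FastQC 0.11.7 are listed in the same notes. Per the file headers, mates were counted singly and without strand, and reads that mapped to several places or overlapped several genes were not counted, so close copies and overlapping genes lose reads. Counts were fitted here with edgeR 4.0.16 in R 4.3.3 (TMM scaling, filterByExpr with min.count 10 and min.total.count 15, glmQLFit with robust estimation, glmQLFTest, two-sided, Benjamini-Hochberg threshold 0.05), with the 4 groups sharing 1 estimate of the spread. A member counted as changed by genotype where both treatments passed with the same sign. All files together held 26264 genes, of which 5461 had no read and 16465 were tested. Intervals and floors cover counting error only, at 95% confidence, and take each read as separate. Since both mates of a fragment can be counted, these intervals are too narrow and these floors too low. Replicates of every group differed by more than sampling noise. The code was tested on simulated data.

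The members, lists and marker sets were chosen with earlier results of these data known. By a rule fixed with them, genes were named as follows. Values per library, or reads per group, are given for the 2 members of each role with the largest mean fold change (1 in roles with under 3 members) and every member lower or not called in both treatments. Values per library, ranges, reads or fold changes are given for the 3 members of smallest p for estrogen, ligands, receptors, kinases, STATs and regulatory factors. The same holds for the 3 extreme called genes in each direction of the other pathway lists. Replicate numbers paired the KO libraries: deviations from group means correlated by 0.795, 0.714 and 0.603 between libraries of the same number without and with estrogen. Alternatives were DESeq2 1.42.0, other size factors, other low-count filters, a fit to 2 groups, a replicate block, and each library left out. Promoters came from RefSeq (GRCm38.p6) and exon lengths from GENCODE (GRCm38), matched by symbol. These differ from the build of the counts, so positions of genes are not given. Close copies were measured as the share of 150-base windows of a member's transcripts that also occur in transcripts of another gene. In RefSeq, 15 members overlap another gene. A few genes of the pathway and marker lists are included in the counts and sums but are not reported here by name.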

Additional observations from a re-analysis of the deposited data

How the results depend on the processing

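Members called higher in both treatments numbered 39 to 40 when each library was left out in turn, and members called lower 3 to 4. Without estrogen the counts were 39 to 41 higher and 4 lower, with estrogen 41 to 42 higher and 3 to 4 lower, and the pathway genes 56 to 58 higher and 14 to 16 lower in both. Members called for estrogen or the interaction stayed at 0 in those fits. With library size alone the members lower with estrogen, and those lower in both treatments, fell to 2, and DESeq2 called 2 members for estrogen in KO (Gbp11 and Gbp6) in place of 0. With the replicate number as an additive block (replicate block), 40 members were higher and 3 lower in both treatments, and the Mx1 call with estrogen (edgeR adjusted p = 0.0723) and the Gbp3 call without it (0.0612) were lost. With the replicate block within genotype, which the KO numbers bear out, 0 members were called for estrogen in KO. In WT, same-numbered libraries correlated by -0.309, -0.272 and -0.613 and no library correlated best with its own number, and that block called 0 members of 7 genes there and 0 of 4 genes for the interaction. WT replicates 1, 2 and 3 without estrogen correlated best with replicates 2, 3 and 1 with it (0.587, 0.715 and 0.591). The block by number does not follow these pairs, so its WT and interaction results are not those of a paired test. Several fold changes near 0 that pass no test changed sign, and the cause was not tested. Trim25 without estrogen became 0.048 with DESeq2 size factors, 0.23 with library size alone, 1e-04 with no filter, 0.018 with at least 1 CPM in 3 libraries, 0.049 in DESeq2, 0.014 in the fit to 2 groups, 0.0014 with the replicate block, and between -0.10 and 0.14 without single libraries. Stat3 without estrogen became 0.0097, 0.19 and 0.011 with DESeq2 size factors, library size alone and DESeq2, and -0.12 to 0.051 without single libraries. Stat3 with estrogen became 0.012, 0.14 and 0.013 under the same 3, and -0.089 to 0.034 without single libraries. Stat2 became 0.15 without and 0.12 with estrogen under library size alone, and -0.19 to 0.033 with estrogen without single libraries. Leaving out single libraries gave -0.027 to 0.099 for Igtp without and -0.090 to 0.13 with estrogen, and -0.19 to 0.30 for Gbp3 with estrogen. Levels near the floor of 3 reads per group, such as those of Gbp11 in WT, allow no more than a bound, and the deposited counts do not separate near-identical copies.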
